A study of Mus musculus with 9 samples.

Results

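The genes described here are the 59 matrix metalloproteinases, ADAMTS proteases and ADAMTS-like proteins, tissue inhibitors of metalloproteinases, lysyl oxidases, tolloid proteinases and procollagen C-proteinase enhancers of the mouse. They were taken by symbol from the protein-coding genes of GENCODE M21: names beginning with Adamts, Mmp genes with a number, Timp1 to Timp4, Lox and Loxl1 to Loxl4, Bmp1, Tll1, Pcolce and Pcolce2. All 59 were found among the 35071 genes measured in subcutaneous fat of C57BL/6 mice at 24 weeks of age. The libraries came from 3 Homo KO, 3 Hete KO and 3 WT animals, with WT as control, and the knockout removes AGO1 from endothelium. AGO1 is an Argonaute protein that carries microRNAs to their target transcripts. The labels name no Cre driver and do not say whether WT animals carried a floxed allele. Whole fat was sequenced, so each value mixes all cells of the depot, and in such bulk samples fewer cells of a type and less RNA per cell cannot be told apart.

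The libraries held between 20843427 and 28252001 estimated counts. Ago1 was at 62.2, 58.6 and 25.8 normalized CPM in Homo KO libraries 1 to 3, at 51.2, 59.7 and 60.1 in Hete KO libraries and at 69.9, 63.8 and 63.4 in WT libraries. Normalized CPM are counts per unit of library size, after TMM scaling of the library sizes. Only Homo KO 3 stood far below WT, and cells other than endothelial cells also contribute Ago1 transcripts. Skeletal muscle transcripts, an 18-gene list with counts for 18 of 18 genes in every library, made up 7.62% of counts in Hete KO 2, 3.22% in WT 1 and 2.53% in WT 2, and 0.0143 to 0.392% in the other libraries. The 16 markers of adipose progenitors and fibroblasts, all 16 detected in every library, summed to 0.410 to 0.467% of counts in Homo KO, 0.217 to 0.396% in Hete KO and 0.501 to 0.712% in WT. The 12 cell cycle genes summed to 0.00886 to 0.0136%, 0.00600 to 0.00983% and 0.0153 to 0.0250% in Homo KO, Hete KO and WT. Liver transcripts, 20 genes of which 9 had counts in every library, summed to 0.147 to 0.162% in Homo KO, 0.0986 to 0.169% in Hete KO and 0.231 to 0.450% in WT. The progenitor, cell cycle and liver lists were lower in all 6 KO libraries than in WT. The progenitor and fibroblast list includes the matrix genes Col1a1, Col3a1, Fbn1, Dcn and Lum, so its sum also follows matrix transcripts. Macrophage markers, with counts for 16 of 16 genes in every library, summed to 0.0717 to 0.121% in Homo KO, 0.0563 to 0.0832% in Hete KO and 0.107 to 0.164% in WT, so that only Hete KO lay wholly below WT. Adipocyte (13 of 13 genes) and endothelial (15 of 15) lists overlapped between the KO groups and WT. The part of these differences in the results below was not tested.

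Fat matrix is laid down as procollagen, whose ends are trimmed outside the cell. BMP1 and the tolloid proteinases remove the C-terminal propeptide, helped by the PCOLCE enhancers, while ADAMTS2, ADAMTS3 and ADAMTS14 remove the N-terminal one. Lysyl oxidases then crosslink collagen and elastin fibres. Matrix metalloproteinases and the ADAMTS enzymes that cut proteoglycans open this matrix again as fat grows and remodels, and the TIMPs inhibit them.

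The proteases of the set share 1 chemical feature, a zinc ion held by 3 histidines in the active site. The short coding stretch that encodes it is shown for 6 proteases whose levels are described below, since it is what unites enzymes with otherwise unlike substrates. The sequences are from GENCODE M21 transcripts on GRCm38, are written in the direction of the gene, and have the codons of the 3 histidines in capitals.
Bmp1: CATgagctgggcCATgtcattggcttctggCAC
Adamts7: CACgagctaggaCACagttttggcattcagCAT
Adamts5: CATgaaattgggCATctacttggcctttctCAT
Adamts1: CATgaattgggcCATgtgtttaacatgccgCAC
Mmp14: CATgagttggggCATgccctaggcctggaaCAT
Mmp3: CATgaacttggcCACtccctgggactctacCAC
The Bmp1 stretch lies in 1 exon at chr14:70508060-70508092 on the minus strand, the Mmp14 stretch at chr14:54437627-54437659 and the Mmp3 stretch at chr9:7449775-7449807, both on the plus strand. Those of Adamts7 (chr9:90179456-90180640, plus strand), Adamts5 (chr16:85878015-85887826, minus strand) and Adamts1 (chr16:85799191-85799545, minus strand) are interrupted by an intron. Of 33 bases, Adamts1 shared 23 with Bmp1, Mmp14 and Mmp3 shared 22 each, Adamts5 shared 21 and Adamts7 shared 20. All 43 proteases of the set had the 3 histidine codons at this spacing in their longest coding transcript. In 37 of them codon 8 of these 11 encoded glycine, and the 6 with another codon there were Adamts1, Adamts4, Adamts8, Adamts9, Adamts15 and Adamts20. None of the 16 TIMPs, lysyl oxidases, PCOLCE enhancers and ADAMTS-like proteins, which are not proteases of this kind, had the stretch with glycine.

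Levels were compared between genes in TPM, the authors' measure of transcript abundance, which is scaled to transcript length. Timp3, an inhibitor that binds to the matrix and also blocks ADAMTS proteases, was the most abundant of the genes, with a mean of 298 TPM over the 9 libraries. Adamts5, a protease of versican and aggrecan, followed with 192 TPM, and Pcolce with 98.1 TPM. Lox (76.8 TPM), Timp2 (75.4 TPM), the gelatinase Mmp2 (72.3 TPM) and Timp4 (67.6 TPM) were close to each other. Bmp1 itself was at 20.5 TPM, and its relative Tll1 at 3.57 TPM. At the low end of the named genes stood Adamts7 at 3.40 TPM, Adamtsl3 at 3.03 TPM and Timp1 at 1.38 TPM. Timp3 made up 67.4% of TIMP transcripts, Pcolce 70.3% of those of the tolloid and PCOLCE group, Mmp14 69.1% of the membrane-type MMPs, Lox 51.1% of the lysyl oxidases and Adamts5 50.0% of the ADAMTS proteases.

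**Figure D1:**
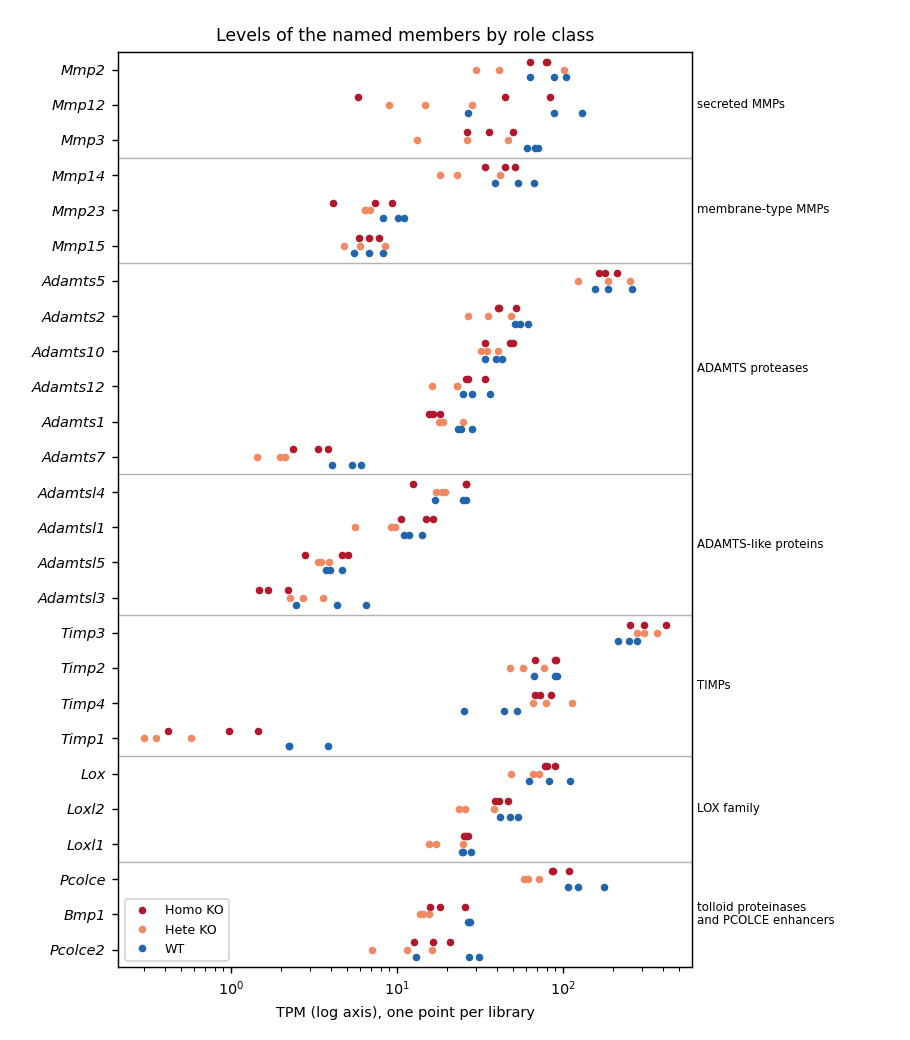
Level in TPM (log axis) of the 26 named genes in each library, grouped by role. Each point is 1 library of Homo KO, Hete KO or WT. The genes span from Timp1, at a mean of 1.38 TPM, to Timp3, at 298 TPM.

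Summed over each role, the classes differed between groups in different directions. The 4 tolloid and PCOLCE genes together had 134 ± 21.8 TPM in Homo KO, 93.5 ± 9.79 TPM in Hete KO and 191 ± 27.5 TPM in WT (mean ± SD, n = 3). Each Homo KO and Hete KO library lay below all WT libraries for this sum, since the KO libraries had 82.6 to 159 TPM and the WT libraries 165 to 220 TPM. The TIMPs together had 485 ± 99.8, 466 ± 65.0 and 376 ± 39.8 TPM in Homo KO, Hete KO and WT. Here Homo KO 3, at 392 TPM, lay below WT 1 at 417 TPM. The LOX family had 160 ± 12.7, 119 ± 24.0 and 172 ± 21.2 TPM, and its Hete KO libraries (96.5 to 144 TPM) lay below the Homo KO (150 to 174 TPM) and WT libraries (159 to 196 TPM). Secreted MMPs had 214 ± 68.0, 152 ± 80.2 and 294 ± 77.2 TPM, membrane-type MMPs 60.9 ± 12.0, 45.4 ± 13.1 and 73.7 ± 16.8 TPM, and ADAMTS proteases 378 ± 26.8, 358 ± 89.6 and 413 ± 61.9 TPM. For these 3 classes the ranges of the KO groups overlapped with WT. ADAMTS-like proteins had 45.7 ± 11.6, 36.1 ± 1.96 and 47.8 ± 4.58 TPM, with all Hete KO libraries (34.9 to 38.4 TPM) below all WT libraries (44.9 to 53.1 TPM) and Homo KO spread over 32.3 to 52.6 TPM. Sums over a class follow its most abundant genes and were not tested.

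Of the 59 genes, 52 passed the filter on low counts and were tested. Adamts13, Adamts19, Mmp1b, Mmp7, Mmp8, Mmp10 and Mmp20 did not pass. Mmp1b had no count in any library, which allows up to 3 counts or 0.107 to 0.145 CPM per library, and the other 6 reached at most 17.0 estimated counts, that of Adamts19 in WT 2. Adamts19 had counts in the 3 WT libraries and in no KO library. Of the 3 secreted collagenases of the set, Mmp1b and Mmp8 were thus at or near 0, and Mmp13 was at 0.641 TPM.

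Homo KO fat had lower levels than WT in many of these genes, none of which passed the test. In edgeR's quasi-likelihood test, 0 of the 52 genes passed an adjusted p of 0.05, as did 0 of all 17968 genes tested (0%), and DESeq2 called 5 of 52 genes (9.62%), all lower (Bmp1, Pcolce, Adamts7, Adamtsl3 and Adamts1), against 3.34% of all genes with an adjusted p there. At an unadjusted p under 0.05, 2 genes were higher and 12 were lower (23.1%), against 7.75% of all genes higher and 8.68% lower. In 17 of the 52 genes (32.7%) all 3 Homo KO libraries lay below all WT libraries, and in 5 above, against 11.2% and 10.9% of all genes. The median log2 fold change of the 52 genes was -0.19, beside -0.01 for all genes. Without WT 1, edgeR called 2 of the genes (3.85%), against 0.824% of all genes, Bmp1 (-0.77, adjusted p = 0.0240) and Adamtsl3 (-0.95, adjusted p = 0.0433).

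In Hete KO fat Bmp1, Pcolce and Adamts7 fell relative to WT by edgeR and no gene of the set passed as higher, so that 3 of 52 genes (5.77%) passed, all lower, against 0.417% of all genes (0.267% lower and 0.150% higher). At an unadjusted p under 0.05, 21 genes (40.4%) were lower and 1, Timp4, was higher, beside 12.1% and 9.71% of all genes. All 3 Hete KO libraries lay below WT for 19 genes (36.5%) and above WT for 4, beside 12.1% and 12.6% of all genes (24.7% in either direction). The median log2 fold change was -0.45, beside 0.02 for all genes, and 39 of the 52 were below 0. By class the median was -0.96 for the tolloid and PCOLCE group, -0.53 for ADAMTS-like proteins, -0.49 for secreted MMPs, -0.44 for the LOX family, -0.27 for ADAMTS proteases, -0.06 for TIMPs and 0.04 for membrane-type MMPs. DESeq2 called 13 of 49 genes (26.5%), against 9.77% of all genes with an adjusted p there: the 3 above, the lower Adamts2, Adamts3, Adamts12, Loxl2, Loxl3, Mmp3, Mmp14, Pcolce2 and Timp2, and the higher Timp4. Without Hete KO 1, whose values stood above those of the other Hete KO libraries for several of these genes, 13 genes (25.0%) passed by edgeR, against 5.18% of all genes: Bmp1, Pcolce and Adamts7, the lower Adamts2, Adamts12, Loxl1, Loxl2, Mmp2, Mmp3, Mmp14, Mmp19 and Timp2, and the higher Timp4. Without any 1 of Hete KO 2, Hete KO 3, the 3 Homo KO libraries or WT 2 none passed.

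Taking the 6 KO libraries together against WT, 5 genes fell by edgeR and none passed as higher: Bmp1, Pcolce, Adamts7, Adamtsl3 and Timp1. These were 9.62% of the 52 genes, against 2.34% of all genes, 1.52% lower and 0.824% higher. At an unadjusted p under 0.05, 21 genes (40.4%) were lower and 2, Timp3 and Timp4, higher, beside 12.3% and 10.2% of all genes. For 13 genes (25.0%), every KO library was lower than every WT library, beside 6.06% of all genes. The KO libraries lay above WT for 3, Timp3, Timp4 and Mmp25, beside 6.37% of all genes. DESeq2 called 13 of 52 genes (25.0%), against 9.70% of all genes: the 5 above, the lower Adamts1, Adamts2, Adamts3, Loxl3, Mmp3, Mmp14 and Pcolce2, and the higher Timp4. These comparisons all use the same 3 WT libraries, so they are not independent of each other. Without Hete KO 1, 14 genes (26.9%) passed by edgeR, against 5.92% of all genes, without Hete KO 2 it was 3, without Homo KO 1 or WT 3 it was 2, and without Homo KO 2, Homo KO 3, Hete KO 3 or WT 2 none did.

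**Figure D2:**
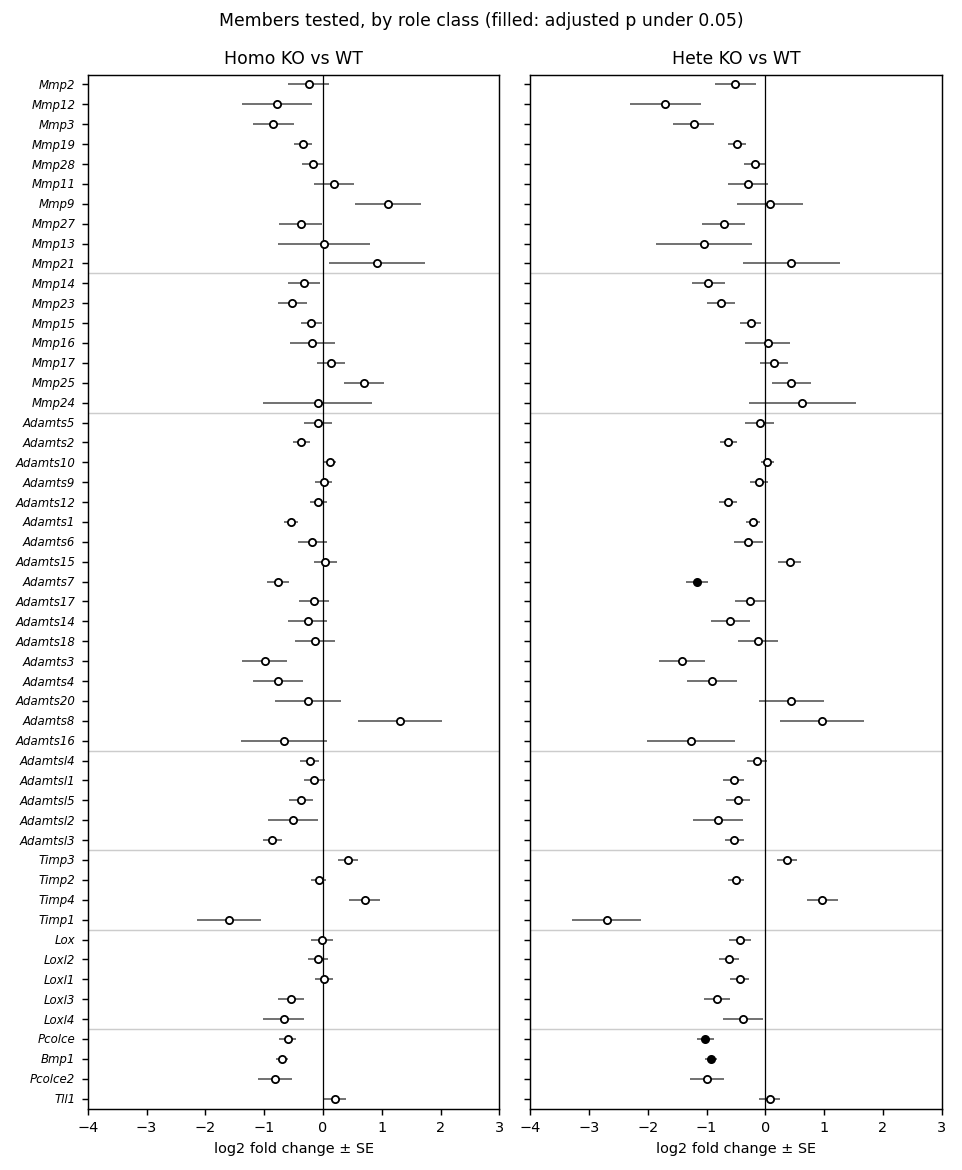
Log2 fold change ± SE of the 52 tested genes in Homo KO (left) and Hete KO (right) against WT, ordered by role and, within a role, by level. Filled points passed an adjusted p of 0.05 (edgeR): none in Homo KO, and Adamts7, Pcolce and Bmp1 in Hete KO.

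The procollagen C-proteinase Bmp1 (chr14:70474558-70520234, minus strand, mm10) had 44.8, 41.4 and 41.9 normalized CPM in Homo KO libraries 1 to 3, 38.5, 34.1 and 37.1 in Hete KO libraries and 62.1, 71.3 and 75.1 in WT libraries. All 6 KO libraries lay below the lowest WT library, and Hete KO below Homo KO. It fell in Hete KO by 0.92 on the log2 scale (SE 0.105, adjusted p = 0.0251) and in both KO groups together by 0.81 (SE 0.0877, adjusted p = 0.0155), by edgeR. For Homo KO the log2 fold change was -0.70 (SE 0.104, adjusted p = 0.126). Pcolce, a secreted protein that speeds the cleavage of fibrillar procollagens by BMP1 (chr5:137605103-137613784, minus strand), had 65.0, 63.2 and 66.6 CPM in Homo KO, 46.1, 47.8 and 51.9 CPM in Hete KO and 88.0, 124 and 84.3 CPM in WT. The 3 groups did not overlap, with Hete KO lowest and WT 2 highest. It fell in Hete KO by 1.02 (SE 0.144, adjusted p = 0.0332) and in both KO groups together by 0.81 (SE 0.120, adjusted p = 0.0265), while Homo KO had -0.60 (SE 0.143, adjusted p = 0.162). Both Hete KO calls were lost without Hete KO 2, Hete KO 3, any 1 of the Homo KO libraries or WT 2, with adjusted p of 0.0547 to 0.138 for Bmp1 and 0.0598 to 0.165 for Pcolce. They were also lost with an offset for transcript length (0.0914 and 0.0841), with the compared groups only (0.111 and 0.116) and in limma on log2 TPM (0.107 to 0.128), but not in DESeq2. For both KO groups together, Bmp1 was not called without Hete KO 3, Homo KO 2, Homo KO 3 or WT 2 (0.0587 to 0.0946), nor Pcolce without these or Homo KO 1 (0.0534 to 0.109), nor either with the offset (0.0612 and 0.0606) or in limma (0.104 to 0.122). The summed progenitor and fibroblast markers were also lower in every KO library than in WT (0.217 to 0.467% of counts in KO and 0.501 to 0.712% in WT), and their part in these values was not tested. This sum follows its abundant matrix genes, as Col3a1 and Col1a1 averaged 2743 and 1283 CPM in WT. Col3a1 averaged 2071 CPM in Homo KO and 1428 CPM in Hete KO, and Col1a1 906 and 666 CPM. The marker Dcn was not lower in Homo KO, with means of 356, 277 and 352 CPM in Homo KO, Hete KO and WT.

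The second enhancer, Pcolce2, had 37.1, 31.0 and 25.6 CPM in Homo KO, 37.2, 16.5 and 30.0 CPM in Hete KO and 58.2, 40.2 and 67.5 CPM in WT. Every KO library was below every WT library, yet in the reported edgeR fit no comparison passed (both KO groups together -0.91, adjusted p = 0.0719). DESeq2 called it there (adjusted p = 0.00378) and in Hete KO (0.00696). By edgeR it passed in both KO groups together without the filter on low counts, with a replicate block and without Hete KO 1. Tll1, the other tolloid proteinase of the set, averaged 11.6 ± 1.86 CPM in Homo KO, 10.7 ± 0.943 CPM in Hete KO and 10.1 ± 1.79 CPM in WT, and its libraries overlapped. By group mean, the most abundant Bmp1 transcript was Bmp1-201, the 1 protein-coding transcript of 7 annotated. It was at 13.2, 10.2 and 9.24 TPM in Homo KO, 11.5, 5.28 and 8.11 TPM in Hete KO and 20.5, 14.8 and 19.4 TPM in WT, or 38.3 to 75.6% of the gene. Here too each KO library lay below WT. Pcolce-201, a coding transcript among 12 annotated, had 45.1, 27.1 and 40.1 TPM in Homo KO, 31.5, 31.1 and 34.7 TPM in Hete KO and 63.6, 74.9 and 53.1 TPM in WT. Estimates for transcripts that share exons are uncertain, and a noncoding transcript of Bmp1 was at 10.4 TPM in Homo KO 2 and between 0 and 1.91 TPM elsewhere.

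Among the ADAMTS proteases, Adamts7 (chr9:90163069-90208071, plus strand) fell. It cleaves cartilage oligomeric matrix protein, as does Adamts12. Adamts7 had 10.2, 7.18 and 8.54 CPM in Homo KO, 6.82, 5.56 and 7.15 CPM in Hete KO and 13.9, 16.7 and 13.2 CPM in WT. All KO libraries were below WT, and all Hete KO libraries below all Homo KO libraries. The drop was by 1.16 in Hete KO (SE 0.188, adjusted p = 0.0426) and by 0.96 in both KO groups together (SE 0.156, adjusted p = 0.0378), and Homo KO had -0.76 (SE 0.186, adjusted p = 0.165). The Hete KO call was lost without Hete KO 2, Hete KO 3, any 1 Homo KO library, WT 2 or WT 3 (adjusted p 0.0631 to 0.170), and that of both groups together without Hete KO 3, Homo KO 2, Homo KO 3, WT 2 or WT 3 (0.0586 to 0.152). Both were also lost with the length offset (0.0732 in Hete KO and 0.0604 in both groups together) and in limma (0.117 to 0.127), and that of Hete KO with the compared groups only (0.116). Adamts7 overlaps Tbc1d2b on the other strand, which averaged 62.6 CPM, and whether strand was used in counting is not stated in the labels or headers.

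The other named ADAMTS proteases did not pass in any comparison of the reported edgeR fit, while DESeq2 called Adamts1 in Homo KO (adjusted p = 0.0141) and Adamts2 (0.00154) and Adamts12 (0.00233) in Hete KO. By edgeR with all libraries, Adamts2 passed in both KO groups together without the filter on low counts, and Adamts12 in Hete KO with a replicate block. Adamts2, a procollagen N-proteinase, had 191, 187 and 193 CPM in Homo KO, 195, 129 and 152 CPM in Hete KO and 235, 252 and 251 CPM in WT. Its KO libraries lay below WT throughout, and both KO groups together had a log2 fold change of -0.50 (adjusted p = 0.0607). Of the other N-proteinases, Adamts3 was at 0.958 to 2.58 CPM and Adamts14 at 5.55 to 8.42 CPM in group means, and both were highest in WT. Adamts1, a protease of versican, had 54.9, 49.8 and 55.6 CPM in Homo KO, 79.5, 60.5 and 60.9 CPM in Hete KO and 81.2, 76.9 and 75.1 CPM in WT. Here it was Homo KO that lay apart from the rest (-0.54 against WT, adjusted p = 0.161), and Hete KO 1 overlapped with WT. Adamts5, the most abundant ADAMTS protease, ranged from 958 to 1274 CPM in Homo KO, 739 to 1402 CPM in Hete KO and 889 to 1374 CPM in WT, so its groups overlapped. Adamts10, which binds fibrillin, also overlapped, with 58.6 ± 6.20, 54.7 ± 3.77 and 53.7 ± 3.18 CPM in Homo KO, Hete KO and WT.

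Adamtsl3 (chr7:82335694-82614450, plus strand) encodes an ADAMTS-like protein, which has the thrombospondin repeats of the family but no protease domain. It had 6.57, 7.08 and 6.53 CPM in Homo KO, 8.75, 8.01 and 8.61 CPM in Hete KO and 10.4, 14.0 and 12.2 CPM in WT. Unlike Bmp1 and Pcolce, it was lowest in Homo KO, and the 3 groups did not overlap. It fell in both KO groups together by 0.69 (SE 0.135, adjusted p = 0.0411), with -0.86 in Homo KO (adjusted p = 0.154) and -0.53 in Hete KO (adjusted p = 0.108). Leaving out any library but Hete KO 1 or WT 1 ended the call (adjusted p 0.0571 to 0.159), as did the length offset (0.109) and limma (0.240 and 0.247). Its main coding transcript Adamtsl3-203 was at 1.33, 1.33 and 1.11 TPM in Homo KO, 1.64, 1.42 and 1.71 TPM in Hete KO and 2.08, 2.54 and 2.20 TPM in WT, in the same order as the gene. Adamtsl1, Adamtsl4 and Adamtsl5, the more abundant ADAMTS-like genes, did not pass in any comparison and averaged 11.5, 20.9 and 3.96 TPM. All 5 ADAMTS-like genes had log2 fold changes below 0 against WT in Homo KO and in Hete KO.

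Of the 4 TIMPs, Timp1 passed the test by edgeR with all libraries and Timp2, Timp3 and Timp4 did not. Timp1 (chrX:20870166-20874735, plus strand), a soluble inhibitor of most MMPs, had 0.634, 0.428 and 0.205 CPM in Homo KO, 0.260, 0.169 and 0.146 CPM in Hete KO and 0.960, 1.80 and 1.11 CPM in WT. All KO libraries lay below WT, and Homo KO 3 and the Hete KO libraries were close to the 0.107 to 0.145 CPM that 3 counts make in a library. It fell in both KO groups together by 2.15 (SE 0.452, adjusted p = 0.0454), with -2.70 in Hete KO (adjusted p = 0.0619) and -1.60 in Homo KO (adjusted p = 0.222). Leaving out any library but Hete KO 1 or WT 1 ended the call (adjusted p 0.0644 to 0.181), as did the length offset (0.0661) and limma (0.0824 and 0.0998), and under a filter of 1 CPM in 3 libraries Timp1 was not tested. Syn1 overlaps Timp1 on the other strand and averaged 1.08 CPM, about the level of Timp1 in WT.

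Timp4, an inhibitor abundant in fat, had 218, 181 and 201 CPM in Homo KO, 172, 234 and 314 CPM in Hete KO and 122, 81.2 and 165 CPM in WT. All 6 KO libraries were above all WT libraries, but WT 3 and Hete KO 1 were close. With all libraries no comparison passed by edgeR (Hete KO 0.97, adjusted p = 0.0943, both KO groups together 0.84, adjusted p = 0.0825). DESeq2 called Timp4 in both (adjusted p = 0.00265 in Hete KO and 0.00264 in both KO groups together). Timp3 had 1155, 954 and 802 CPM in Homo KO, 785, 932 and 1098 CPM in Hete KO and 755, 651 and 766 CPM in WT. Its KO libraries were also above WT throughout, by a log2 fold change of 0.40 in both KO groups together (adjusted p = 0.156). Timp2, which also takes part in the activation of MMP2 by MMP14, had 162, 145 and 132 CPM in Homo KO, 127, 102 and 96.0 CPM in Hete KO and 151, 160 and 150 CPM in WT. Only Hete KO lay below WT (-0.50, adjusted p = 0.0789). Timp3 and Timp4 overlap Syn3 and Syn2 on the other strand, which averaged 6.93 and 13.1 CPM.

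**Figure D3:**
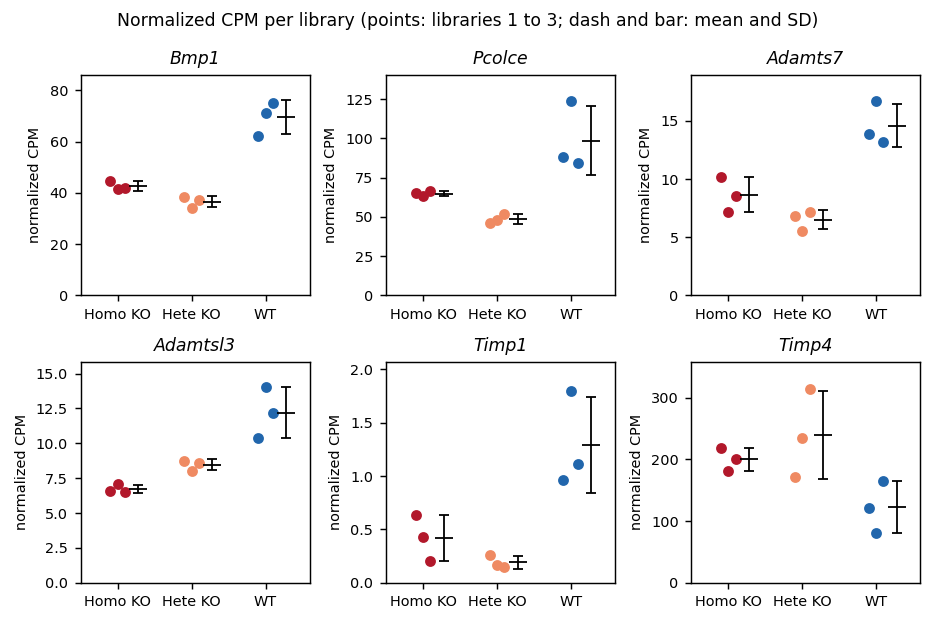
Normalized CPM per library of the 5 genes that fell in both KO groups together and of Timp4, with the mean and SD of 3 libraries per group. In Bmp1, Pcolce, Adamts7, Adamtsl3 and Timp1 all KO points lie below all WT points, and in Timp4 all lie above.

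The upstream sequences of 3 of the 5 genes that fell are shown, since they lie next to where transcription of these genes is annotated to begin. They are the 250 bases before the start of the gene in RefSeq (GRCm38.p6), written in the direction of the gene with matches to the motifs in capitals. The motifs searched on both strands were the TATA box TATAAA, the GC box GGGCGG, the CCAAT box and the AP-1 site TGANTCA, and no matches overlapped. The promoter sequences used here held no entry for Bmp1 and Adamts7.
Pcolce: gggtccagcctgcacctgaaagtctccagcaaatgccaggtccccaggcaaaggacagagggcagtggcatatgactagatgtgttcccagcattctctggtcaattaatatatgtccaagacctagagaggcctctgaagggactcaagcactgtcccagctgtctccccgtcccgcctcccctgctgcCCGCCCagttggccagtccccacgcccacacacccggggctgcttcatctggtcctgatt
Timp1: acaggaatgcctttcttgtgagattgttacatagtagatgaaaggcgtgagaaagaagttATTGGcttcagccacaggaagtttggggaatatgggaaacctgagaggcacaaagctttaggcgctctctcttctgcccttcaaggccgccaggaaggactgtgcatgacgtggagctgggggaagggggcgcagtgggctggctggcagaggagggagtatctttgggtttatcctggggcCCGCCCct
Adamtsl3: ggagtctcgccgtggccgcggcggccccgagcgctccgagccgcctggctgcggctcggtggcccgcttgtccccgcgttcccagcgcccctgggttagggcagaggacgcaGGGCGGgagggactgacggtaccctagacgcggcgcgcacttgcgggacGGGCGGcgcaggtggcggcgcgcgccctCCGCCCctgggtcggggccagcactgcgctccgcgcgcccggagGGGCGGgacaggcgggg
All 3 windows held GGGCGG. They lie at chr5:137611405-137611654 (minus strand), chrX:20869916-20870165 (plus strand) and chr7:82335444-82335693 (plus strand), and that of Pcolce falls inside the span of the gene in GENCODE. That of Adamtsl3 was 80.0% G and C, with 4 matches to GGGCGG, against 58.8% for Pcolce and 54.4% for Timp1, which had 1 match each, and a median of 52.4% over all promoters. Timp1 also had 1 match to CCAAT. None held TATAAA or TGANTCA. Of 32841 promoter windows of this length, 32.7% held GGGCGG, 33.9% CCAAT, 12.4% TATAAA and 6.8% TGANTCA. Of the 39 genes of the set in the table, 23 held GGGCGG, 8 CCAAT, 9 TATAAA and 6 TGANTCA. A match of letters is not evidence of binding.

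No MMP passed by edgeR in any comparison with all libraries. DESeq2 called Mmp3 and Mmp14 as lower in Hete KO (adjusted p = 0.00280 and 0.00505) and in both KO groups together (0.00359 and 0.0446), and by edgeR Mmp2, Mmp3, Mmp14 and Mmp19 passed as lower in Hete KO without Hete KO 1. Mmp14, a membrane-bound collagenase that activates MMP2, had 78.7, 75.1 and 60.8 CPM in Homo KO, 68.3, 31.1 and 37.2 CPM in Hete KO and 84.5, 112 and 71.0 CPM in WT. Hete KO lay below WT (-0.97, adjusted p = 0.101), and Homo KO overlapped with it. Mmp3, stromelysin 1, had 54.0, 41.6 and 32.2 CPM in Homo KO, 52.7, 16.1 and 29.9 CPM in Hete KO and 72.4, 82.6 and 75.3 CPM in WT. Its KO libraries were below WT throughout, and both KO groups together had -1.03 (adjusted p = 0.0812). Mmp12, the macrophage elastase, had 84.2, 54.4 and 13.3 CPM in Homo KO, 36.6, 18.8 and 25.4 CPM in Hete KO and 124, 101 and 37.0 CPM in WT. Macrophage markers were also lowest in Hete KO, and their part was not tested. Within Homo KO and within WT, library 3 was the lowest, and the highest and lowest library differed more than the group means did. Without WT 1, WT 2 and Hete KO 2, the libraries with muscle transcripts, the Mmp12 value for both KO groups together was 0.10. With all libraries it was -1.24 (adjusted p = 0.176). The fit without them left WT 3, the lowest WT library for Mmp12, as the only WT library. Mmp2, whose groups overlapped, ranged from 116 to 129 CPM in Homo KO, 59.9 to 175 CPM in Hete KO and 124 to 179 CPM in WT. Mmp9, the other gelatinase, was far lower, at 4.06 ± 1.47 CPM in Homo KO, 1.98 ± 1.71 CPM in Hete KO and 1.89 ± 0.144 CPM in WT. Mmp15 and Mmp23, the other named membrane-type MMPs, averaged 6.71 and 7.79 TPM. Mmp23 lay below WT in all KO libraries, with 5.58 ± 1.65, 4.75 ± 0.241 and 8.02 ± 1.04 CPM in Homo KO, Hete KO and WT, and Mmp15 overlapped.

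Lox, Loxl1 and Loxl2 were lowest, on average, in Hete KO. Lox had 244, 240 and 237 CPM in Homo KO, 200, 148 and 190 CPM in Hete KO and 299, 175 and 252 CPM in WT. Homo KO lay within the range of WT, whose library 2 was low. Loxl2, which crosslinks collagen IV, had 127, 121 and 114 CPM in Homo KO, 110, 68.7 and 71.2 CPM in Hete KO and 129, 137 and 118 CPM in WT. All Hete KO libraries lay below WT (-0.62, adjusted p = 0.0932), and Homo KO overlapped with WT. Loxl1, an enzyme of elastic fibres, had 53.1, 59.7 and 63.0 CPM in Homo KO, 54.0, 36.6 and 37.7 CPM in Hete KO and 51.4, 62.9 and 59.5 CPM in WT. Its Hete KO 1 was at the level of the other groups. The 5 genes of the family had log2 fold changes below 0 in Hete KO, and 4 of 5 reached an unadjusted p under 0.05, beside 12.1% of all genes that were lower at that p. None passed the adjusted threshold by edgeR in any comparison with all libraries, while DESeq2 called Loxl2 (adjusted p = 0.0102) and Loxl3 as lower in Hete KO and Loxl3 in both KO groups together. Without Hete KO 1, Loxl1 (-0.62, adjusted p = 0.0350) and Loxl2 (-0.85, adjusted p = 0.0123) passed in Hete KO by edgeR.

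Homo KO fat had higher levels than Hete KO fat in most of these genes, although none passed the test. By edgeR 0 of the 52 genes passed, as did 0 of all genes (0%), and DESeq2 called none of them, beside 0.00789% of all genes. At an unadjusted p under 0.05, 7 genes (13.5%) were higher in Homo KO and 1 lower, beside 2.25% and 3.19% of all genes (5.44% in either direction). All Homo KO libraries lay above all Hete KO libraries for 10 genes (19.2%) and below for 3, beside 5.73% and 5.64% of all genes. The median log2 fold change of the 52 was 0.25, beside 0.00 for all genes, and 41 were above 0, among them all 10 secreted MMPs and all 4 tolloid and PCOLCE genes. The 7 higher genes were Adamts12 (0.57), Timp2 (0.44), Loxl2 (0.54), Pcolce (0.42), Loxl1 (0.45), Mmp14 (0.65) and Lox (0.42), and the lower one was Adamts1 (-0.33), each with an adjusted p of 0.899. Adamts12 had 163, 138 and 129 CPM in Homo KO and 107, 81.6 and 101 CPM in Hete KO. These ranges do not overlap, while WT, at 175, 146 and 132 CPM, overlapped with Homo KO. For Adamts12, Timp2, Loxl2, Loxl1 and Lox the Homo KO mean was within 10 CPM of the WT mean.

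**Figure D4:**
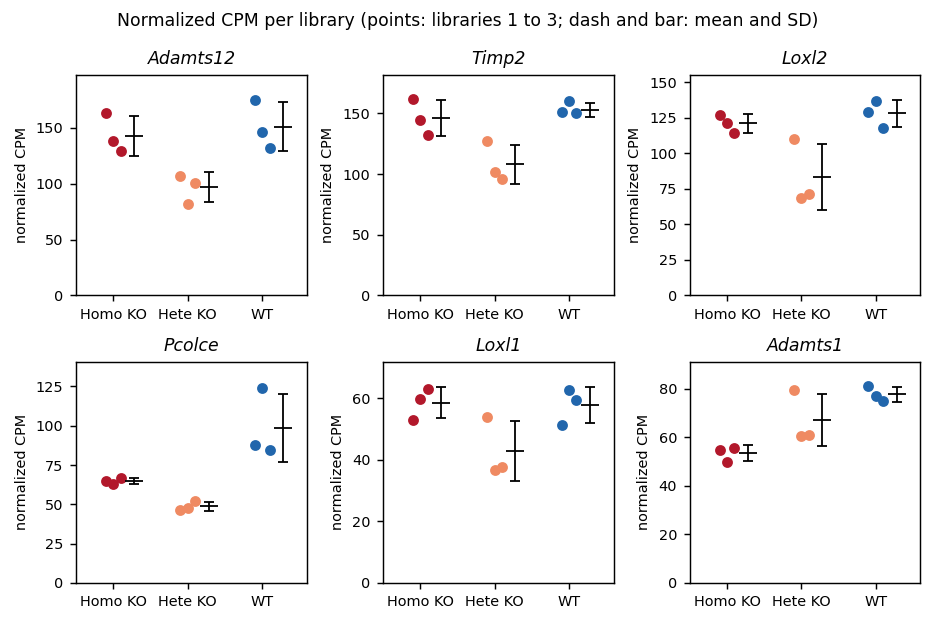
Normalized CPM per library of the 6 genes with the smallest p between Homo KO and Hete KO, with the mean and SD of 3 libraries per group. Adamts12, Timp2, Loxl2 and Pcolce show all Hete KO points below Homo KO, Loxl1 overlaps through Hete KO 1, and Adamts1 is lowest in Homo KO.

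Genes on which these enzymes act, or which act beside them, were taken from 7 lists. Of 18 tested collagen and elastic fibre substrates, 2 fell in both KO groups together by edgeR, Col12a1 and Fn1, against 1.52% of all genes. Col12a1, a collagen on the surface of fibrils, had 36.0, 41.9 and 26.7 CPM in Homo KO, 83.5, 16.8 and 43.9 CPM in Hete KO and 189, 180 and 107 CPM in WT (-1.95, adjusted p = 0.0411). Fibronectin (Fn1) had 512, 416 and 328 CPM in Homo KO, 417, 338 and 324 CPM in Hete KO and 624, 1190 and 773 CPM in WT (-1.15, adjusted p = 0.0395). All KO libraries lay below WT for both. At an unadjusted p under 0.05, 14 of the 18 were lower in Hete KO, with a list median of -0.82, beside 12.1% of all genes. In Homo KO 4 of the 18 were lower, with a median of -0.41, beside 8.68% of all genes. Col3a1 and Col1a1, whose procollagens BMP1 and ADAMTS2 trim, did not pass (Hete KO -0.94 each, adjusted p = 0.0783 for Col3a1 and 0.0752 for Col1a1).

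Of 16 collagen-modifying enzymes and chaperones, P3h1, a prolyl 3-hydroxylase, and Tgm2, a transglutaminase that also crosslinks matrix, fell in both KO groups together (-0.76, adjusted p = 0.0477, and -0.42, adjusted p = 0.0411). Tgm2 was at 187 to 203 CPM in Homo KO, 190 to 192 CPM in Hete KO and 244 to 281 CPM in WT, with little spread within groups. Beside the calls in these lists, 1.52% of all genes were called lower in both KO groups together and 0.267% in Hete KO (edgeR). Of 7 plasminogen system genes, Plau, the urokinase that makes plasmin, fell in Hete KO (-0.79, adjusted p = 0.0488) and in both KO groups together (-0.62, adjusted p = 0.0395). It had 41.9, 39.5 and 35.3 CPM in Homo KO, 35.8, 29.6 and 27.8 CPM in Hete KO and 46.9, 58.7 and 55.1 CPM in WT, again without overlap of KO and WT. Plg, the plasminogen gene, also fell in both KO groups together (adjusted p = 0.0382), but its 17.9 and 15.3 CPM in WT 2 and WT 3, the libraries with most liver transcripts, stood against 0.418 CPM in WT 1 and 0.0742 to 0.632 CPM in the KO libraries. Of 16 other matrix proteases, Dpp4, a cell surface peptidase of adipose progenitors, fell in Hete KO (-1.15, adjusted p = 0.0490) and in both KO groups together (-1.20, adjusted p = 0.0265), and Ctsl, cathepsin L, in both KO groups together (-0.78, adjusted p = 0.0480). Dpp4 is also 1 of the 16 progenitor and fibroblast markers that summed lower in KO fat. Several of these adjusted p were just under 0.05. The other settings were summarized for genes of the set only, so whether the list calls hold there is not given.

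None of 12 proteoglycans and other substrates of ADAMTS and BMP1 passed in any comparison by edgeR. Nor did any of 9 other protease inhibitors and MMP partners or 13 genes of the TGF-beta matrix response. At an unadjusted p under 0.05 in both KO groups together, 3 of these substrates, 3 inhibitors and 3 TGF-beta genes were lower. The TGF-beta list also had 1 higher gene, beside 12.3% of all genes lower and 10.2% higher. The list medians in that comparison were -0.31, -0.14 and -0.29, beside -0.35 for the 52 proteases, inhibitors and crosslinkers and -0.01 for all genes. The lists with calls were as low or lower than the 52 genes, or close to them. Their medians were -0.66 for collagen and elastic fibre substrates and -0.62 for the plasminogen system. Other matrix proteases had -0.35, and collagen-modifying enzymes and chaperones -0.33. Reck, a membrane-anchored MMP inhibitor, was at 11.6 to 12.9 CPM in Homo KO, 7.94 to 13.4 CPM in Hete KO and 9.44 to 12.8 CPM in WT, so that its groups overlapped.

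**Figure D5:**
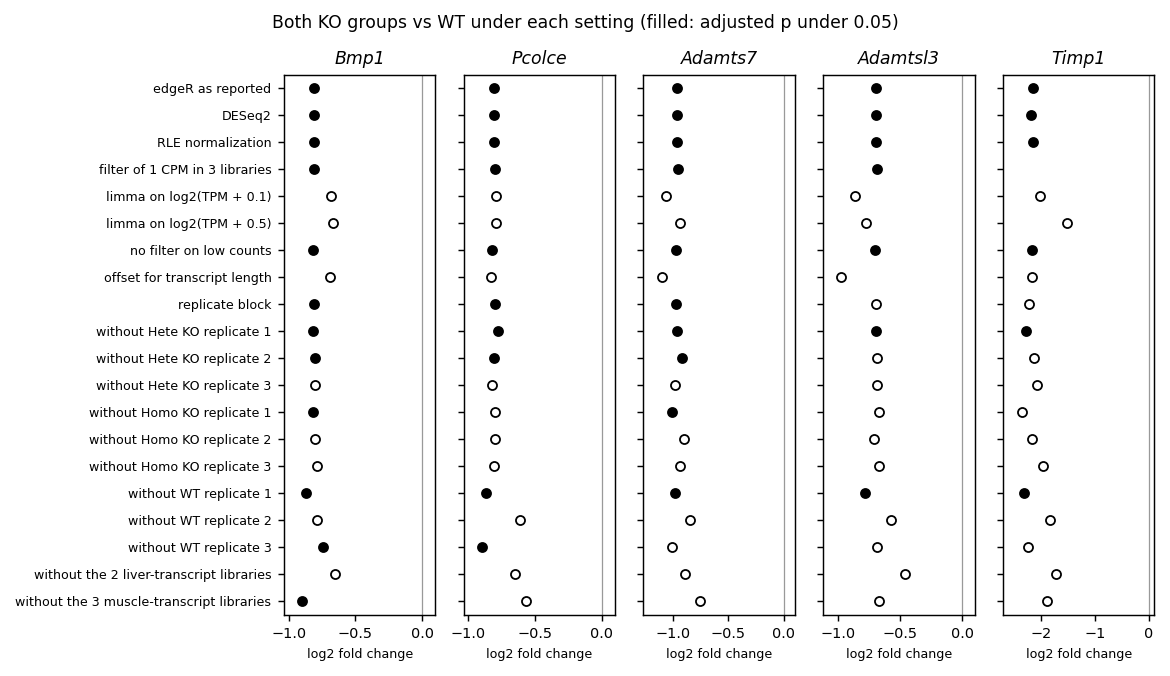
Log2 fold change of the 5 genes that fell in both KO groups together against WT, under each setting of the analysis. Filled points passed an adjusted p of 0.05. All points lie below 0, while the call is lost in several settings. Under the filter of 1 CPM in 3 libraries Timp1 has no point.

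The direction of Bmp1, Pcolce, Adamts7, Adamtsl3 and Timp1 in both KO groups together was negative under every setting run, with Bmp1 between -0.90 and -0.65. Without the 3 libraries with muscle transcripts, Bmp1 was the 1 gene of the set still called (-0.90, adjusted p = 0.0330). Without WT 2 and WT 3, the libraries with most liver transcripts, none was called and Bmp1 had -0.65 (adjusted p = 0.378). In both cases a single WT library was left, whose spread was taken from the KO groups.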

How the data were processed

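RNA sequencing of whole subcutaneous fat gave 9 libraries, 3 per group, and the labels do not say whether mice shared a litter or batch. Per the file headers, the deposited files hold estimated counts (expected counts), not normalized, and TPM, which the authors derived from those counts and effective lengths, for 113193 transcripts. Per the submitters' processing notes the genome build was mm10, and the quantifier was not given in the sources used here.

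By identifier, 111362 transcripts (98.38%) matched GENCODE M21. The 1831 unmatched ones, holding 0.58 to 1.06% of counts per library, stayed out. Expected counts were summed to genes and rounded. After edgeR's filter on low counts 17968 genes were tested by quasi-likelihood F-tests (R 4.3.3, edgeR 4.0.16, TMM, all 9 libraries, 6 residual degrees of freedom, prior count 0.125), two-sided, with Benjamini-Hochberg adjustment over all tested genes and 0.05 as threshold. The code was tested on simulated data. The alternatives were DESeq2 1.42.0, limma 3.58.1 on log2(TPM + 0.5) and log2(TPM + 0.1), other normalization and filters, an offset for transcript length, the compared groups only, a replicate block, and libraries left out. Python 3.11.15 drew the figures.

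The genes, the role classes and the pathway and marker lists were chosen with earlier results of these data known. Named are genes that passed in any comparison, the 6 with the smallest p in each, and the 3 with the highest TPM in each role class, 26 in all. Adamts3, Adamts14, Loxl3, Mmp9, Mmp13, Mmp19, Mmp25 and Tll1 lie outside that rule and were named after their values were seen, as were the pathway genes given with values. Errors and p-values cover the spread between these libraries, and limits from 0 counts cover counting error only.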

Additional observations from a re-analysis of the deposited data

How the results depend on the processing

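The 57 log2 fold changes of named genes with an unadjusted p under 0.05 (edgeR) were recomputed in up to 20 other settings, giving 1117 values. Of these values, 984 kept direction and side of the threshold, 91 lost a call, 40 gained one and 2 reversed. Only the 3 calls in Hete KO and the 5 in both KO groups together could be lost, and most results were not calls from the start. As the 57 were chosen by their p in these libraries, a kept direction is not independent support. The reversed values were both in both KO groups together. Mmp12 had 0.10 without the 3 libraries with muscle transcripts, and Adamtsl1 had 0.04 without the 2 with most liver transcripts. Each of these fits left a single WT library, and the cause was not tested beyond leaving the libraries out. The count of genes called changed more. For Homo KO against WT it was 0, and 5 by DESeq2, with 0 to 2 when 1 library was left out. For Hete KO against WT it was 3, and 13 by DESeq2, 0 by limma on log2(TPM + 0.1) or log2(TPM + 0.5), 0 with the length offset, 0 with the compared groups only, 0 without the muscle libraries, 0 without the liver libraries and 0 to 13 when 1 library was left out. For both KO groups together it was 5, and 13 by DESeq2, 0 by limma with either pseudocount, 0 with the length offset, 1 without the muscle libraries, 0 without the liver libraries and 0 to 14 when 1 library was left out. The 13 and 14 were without Hete KO 1, where Adamts2, Loxl2, Mmp2, Mmp3, Mmp14, Mmp19 and Timp4 were added in both comparisons. Homo KO against Hete KO gave 0 in every alternative. Fewer samples widen the error in the settings that leave libraries out. A fit of the compared groups only is, for both KO groups together, the reported fit. RLE normalization gave 0, 3, 0 and 5 called genes in the 4 comparisons. Without the filter on low counts they were 0, 3, 0 and 7, with Adamts2 and Pcolce2 gained in both KO groups together. A filter of 1 CPM in 3 libraries gave 0, 3, 0 and 4.

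Replicate numbers did not appear to pair the samples, although these values cannot exclude it. Same-numbered libraries of different groups deviated together with correlations of -0.07 to 0.46, not all over 0.1. Libraries with different numbers had correlations of -0.45 to 0.25. With a replicate block the counts were 0, 4, 0 and 4 in Homo KO against WT, Hete KO against WT, Homo KO against Hete KO and both KO groups together, with Adamts12 gained in Hete KO and, in both KO groups together, Pcolce2 gained and Adamtsl3 and Timp1 each at an adjusted p of 0.0521.

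Depth limits Timp1 and the 7 untested genes, whose counts were near 3 per library or below in several libraries.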
